A study of Mus musculus with 24 samples.

Results

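Hearts of mice that carry a cardiac transgene for OGA (OGA_TG) were compared with hearts of wild-type mice (WT) over all gene rows of the heart expression table. The comparison used the 6 libraries labelled OGA_TG and the 6 labelled wildtype, 12 of the 24 hearts in the series. Each group held 3 males and 3 females of the C57BL/6J strain, all adult and without any treatment. The labels call the OGA transgene cardiac specific, while its promoter, the founder line and the exact ages are not given in the sources used here. The other 12 hearts, also of C57BL/6J mice, carried an OGT transgene together with the OGA transgene (DTG) or an OGT transgene alone (OGT_TG), with 6 hearts each. They served only as a second pair of groups that differ by the OGA transgene.

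O-GlcNAc is a sugar, N-acetylglucosamine, that is attached to serines and threonines of nuclear, cytosolic and mitochondrial proteins. OGT is the enzyme that attaches it and OGA is the hydrolase that takes it off, so that a protein can cycle between the modified and the unmodified state. In heart muscle the modification sits on contractile proteins, calcium-handling proteins, metabolic enzymes and transcription factors, and the hexosamine pathway, a branch of glucose metabolism, supplies the sugar donor. Mouse cells keep the levels of OGT and OGA in a mutual balance, in part through the splicing and transcription of their messenger RNAs.

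Expression was given as FPKM, a fragment count divided by transcript length and by the library's mapped total. From the spacing of the lowest FPKM values, depth was estimated at 12 to 15.8 M fragments in OGA_TG libraries and 12.9 to 18.5 M in WT libraries. The sum of FPKM ran from 474957 to 502065 in OGA_TG hearts and from 489563 to 513602 in WT hearts, and 11421 to 11500 rows reached 1 FPKM in OGA_TG hearts against 11515 to 11670 in WT hearts. Across the 66 pairs of hearts, Pearson's r of log2(FPKM + 1) lay between 0.976 and 0.994, and no 2 libraries held identical values. On the second principal component, with 19.4% of the variance, scores were 5.28 to 13.4 in OGA_TG hearts, against -15.8 to -5.74 in WT hearts, while the first component, with 29.8%, did not separate the genotypes. The row named OGA, described below, was among the rows that entered, so this separation is in part given by the transgene itself. How far the other rows alone separate the groups was not tested. Markers of heart muscle stood high in both groups, with Tnnt2, the cardiac troponin T gene, at a mean of 7746 FPKM in OGA_TG hearts and 8293 FPKM in WT hearts. The number that opens each sample title was 2086 for the OGA_TG males and 2138 for the OGA_TG females, and 2047 and 2048 for WT females or 2168 and 2169 for WT males. No number was shared between OGA_TG and WT, so whatever it stands for cannot be told apart from the genotype, nor from sex among the OGA_TG hearts. WT and OGT_TG hearts carry the same numbers, while DTG hearts share theirs with no other group.

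The first question was whether the transgene was expressed and what the mouse genes for the same enzymes did. The row named OGA in capitals, taken here as the transgene from its name and values, had 3089.9, 4187 and 5208 FPKM as the lowest, median and highest OGA_TG heart, against 0 FPKM in 4 WT hearts and 0.0160 and 0.0222 FPKM in the other 2. Every OGA_TG library therefore carried the transgene row and no WT library did above trace level (exact two-sided permutation test, p = 0.00216, the smallest p that the splits of 12 hearts into 6 and 6 allow, adjusted 0.00433 over 4 tests). The female OGA_TG hearts, replicates 4 to 6, lay above the male ones, replicates 1 to 3.

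Mgea5, the mouse gene for OGA itself (RefSeq symbol Oga, chr19:45750255-45783644 in GRCm38), had 20.8, 23.9 and 29.4 FPKM as the lowest, median and highest OGA_TG heart, against 36.6, 41.1 and 48.6 FPKM in WT hearts. All OGA_TG hearts lay below all WT hearts, and the gene fell by 0.75 on the log2(FPKM + 1) scale (SE 0.10, limma adjusted p = 0.00158). Ogt, the mouse gene for the enzyme that attaches the sugar (chrX:101640011-101684351), had 38.6, 40.5 and 48.5 FPKM in OGA_TG hearts and 32.3, 35.4 and 41.6 FPKM in WT hearts. These ranges overlapped, and the log2 difference of 0.21 (SE 0.07) did not pass the limma test over all rows (adjusted p = 0.190), while the exact permutation test of this single row gave p = 0.0130, adjusted 0.0173 over 4 tests. The permutation test takes the hearts as independent and holds neither sex nor title number. The row named OGT in capitals stayed low, at 0.356 to 1.11 FPKM in OGA_TG hearts and 0.415 to 3.44 FPKM in WT hearts. Reads that match both the OGA row and Mgea5, or both the OGT row and Ogt, could have been split between the rows by the quantification, so the levels of these pairs are uncertain to that extent.

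**Figure D1:**
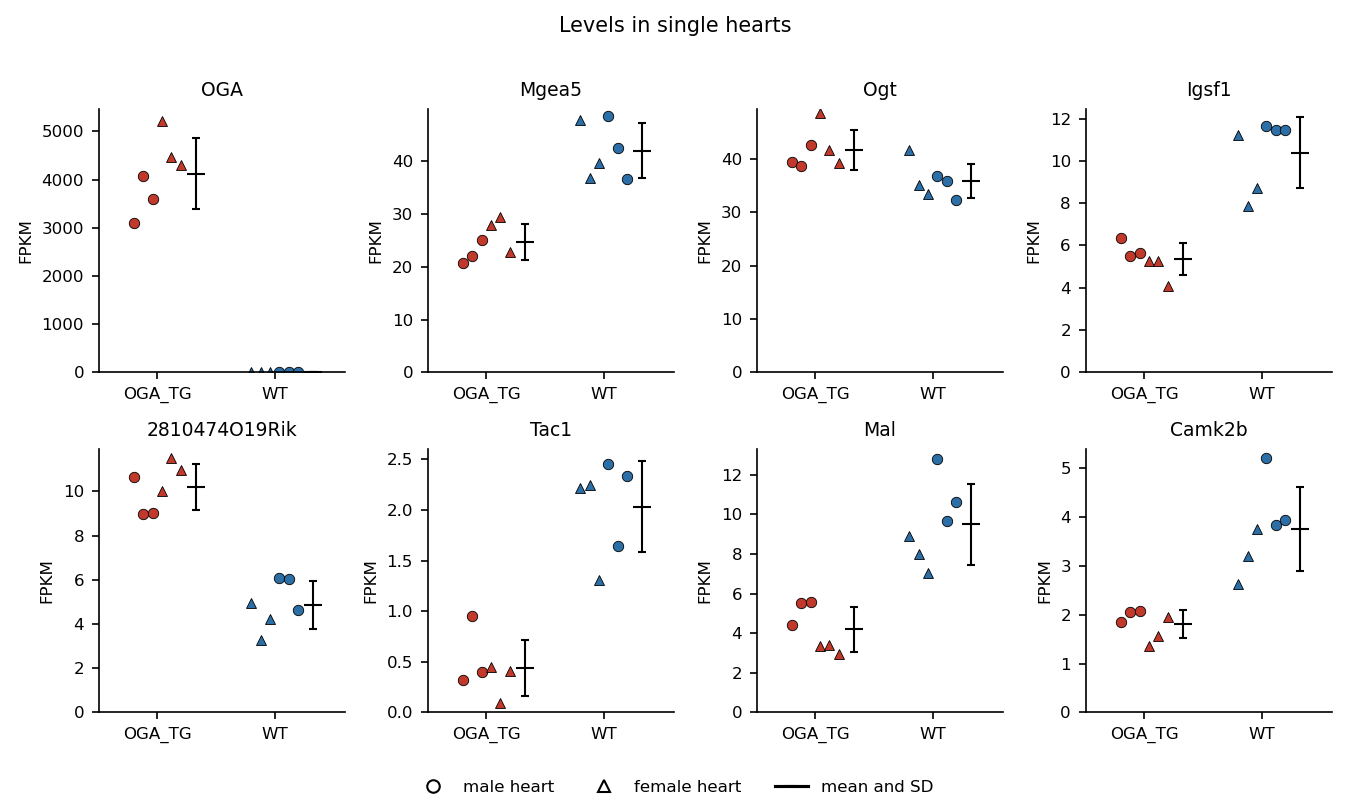
FPKM of 8 rows in each of the 12 hearts, with OGA_TG left of WT in every panel; circles are males, triangles are females, and the bars give the mean and SD (n = 6 per group). OGA_TG hearts lie apart from WT hearts for OGA, Mgea5, Igsf1, 2810474O19Rik, Tac1, Mal and Camk2b, and overlap them for Ogt.

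Few genes were called. Of 11556 rows with at least 1 FPKM in at least 6 hearts, 82 were called at a limma adjusted p under 0.05, which is 0.710% of the rows tested. Before adjustment 1465 rows (12.7%) had a limma p under 0.05, and a row without a call is not shown to be unchanged. In OGA_TG hearts 15 rows rose (0.130%) and 67 fell (0.580%), and the called differences were mostly small, with 34 of 82 reaching 0.5 log2 and 6 reaching 1 log2. The median over all rows tested was -0.05 log2, and 8057 rows were negative against 3499 positive. The excess of falls moved with the scaling: median-of-ratios scaling brought that median to 0.00 and gave 22 rises and 29 falls, and quantile normalization gave 18 rises and 29 falls. In 196 rows (1.70%) all 6 OGA_TG hearts lay beyond all 6 WT hearts, 30 of them above and 166 below, and 62 of the 82 called rows were among them.

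What the title numbers stand for is not given in the sources used here, and hearts with the same number resembled each other more than the fit assumes, with an estimated correlation of 0.308. With title number as a random block, a setting added after the results were seen, 20 of the 82 rows stayed called, 6 rises and 14 falls, with no other row. Besides OGA, they included the rises of Vmn1r220, 2810474O19Rik, Nr4a3 and D830015G02Rik and the falls of Mgea5, Tac1, Mal, Igsf1, Camk2b, Cds1, 3110003A17Rik, Slc41a1, Fah, Tmod4, Acsl6, Slc22a3 and Tmem150c. Every other gene named below as having risen or fallen in OGA_TG hearts lost its call in that fit.

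A core of 19 genes stayed called when each heart was left out in turn, under 3 other scalings and in a fit of all 24 hearts. Of these, 4 rose, among them OGA, Vmn1r220 and 2810474O19Rik. The other 15, all lower in OGA_TG hearts, were Mgea5, Tac1, Mal, Igsf1, Ano4, Epn3, Camk2b, Hsd17b7, Cds1, 3110003A17Rik, Prkcq, Hebp1, Slc41a1, Fah and Best3. Of the core, 13 also stayed called with the title number as a block, and Ano4, Epn3, Hsd17b7, Prkcq, Hebp1 and Best3 did not. By contrast, 46 of the 82 calls were lost when at least 1 particular heart was left out. Kept with each heart left out and under the other scalings, but lost in the fit of all 24 hearts, were among others the rises of Nr4a3, D830015G02Rik, Armc2 and 1110034G24Rik and the falls of AI464131, Tmod4, Tmem35, Acsl6, Slc22a3, Rhd, Aldh1b1, Tmem150c, St3gal1 and E230013L22Rik.

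**Figure D2:**
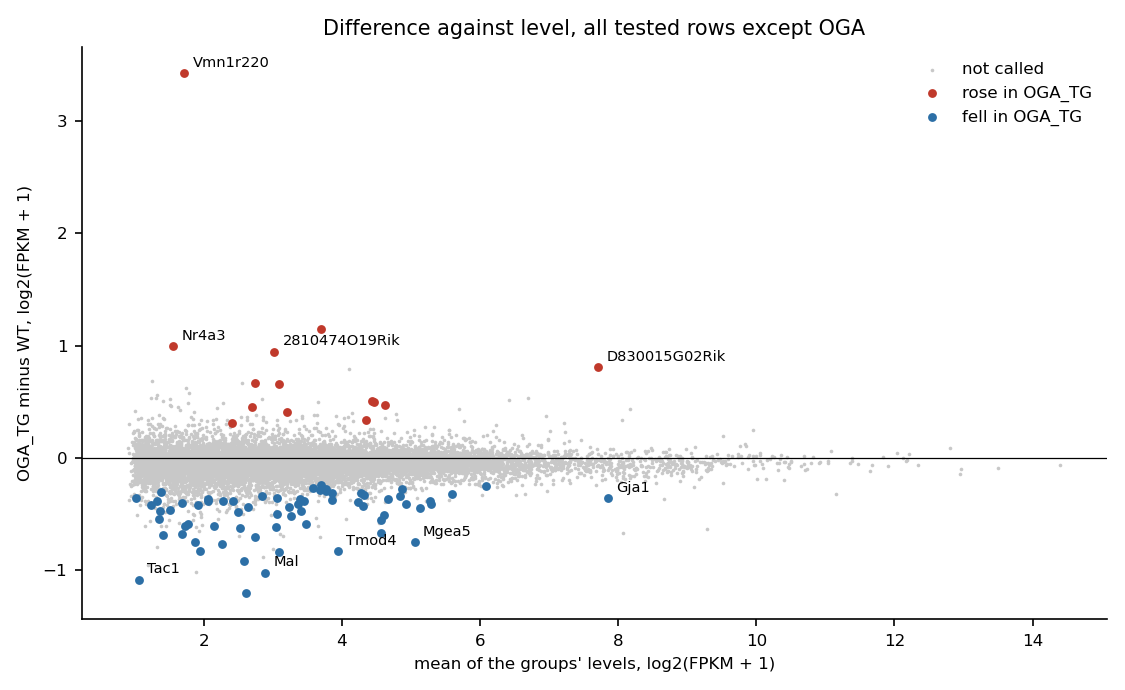
Difference in mean log2(FPKM + 1), OGA_TG minus WT, against the mean level for the tested rows other than OGA; coloured points are called rows. Most rows lie near the median of -0.05, and Vmn1r220 stands far above the other rises.

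The largest rise after that of OGA was that of the row Vmn1r220, named for a vomeronasal pheromone receptor gene (chr13:23183628-23184524). It had 8.14, 9.35 and 12.3 FPKM as the lowest, median and highest OGA_TG heart and was listed at 0 in all 6 WT hearts (limma adjusted p = 1.13e-11). The row was thus present in every OGA_TG heart and in no WT heart. In the second pair of groups it averaged 6.61 ± 1.17 FPKM in DTG hearts (SD, n = 6) and was listed at 0 in all 6 OGT_TG hearts, so it was read only in the 12 hearts that carry the OGA transgene. Whether its reads came from the mouse gene itself was not tested. The other 15 Vmn1r rows stayed at or under 0.869 FPKM in all 24 hearts, and the 2 of them within 2 Mb of Vmn1r220 at or under 0.206 FPKM. Of these 2, Vmn1r221, 33.8 kb away, was above 0 in 4 of 6 OGA_TG hearts, at most 0.109 FPKM, and at 0 in all WT, DTG and OGT_TG hearts. Within 2 Mb on either side, 20 rows were tested, of which Vmn1r220 rose and 2 fell. These 2, looked up after their values were seen, were Hfe, an iron-metabolism gene 522 kb away (-0.43, limma adjusted p = 0.0343), and Hist1h1c, a linker histone gene 555 kb away (-0.38, adjusted p = 0.0327). Each of these calls was lost in 9 of the 12 fits that left out 1 heart, and under median-of-ratios scaling. The same window around Mgea5 held 54 tested rows, of which Mgea5 alone was called.

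Camk2b encodes a subunit of the calcium/calmodulin kinase CaMKII (chr11:5969629-6066357). It had 1.37, 1.901 and 2.07 FPKM in OGA_TG hearts as lowest, median and highest, against 2.62, 3.80 and 5.21 FPKM in WT hearts. The groups did not overlap, and the gene fell by 0.75 log2 (SE 0.09, limma adjusted p = 0.00120). The predominant cardiac subunit gene, Camk2d, looked up after its values were seen, stood at medians of 56.1 FPKM in OGA_TG and 59.8 FPKM in WT hearts (log2 difference -0.06, adjusted p = 0.755). Of the 81 called genes with a RefSeq position, 14 (17.3%) had another called gene within 2 Mb, and so did 1922 of the 11094 tested genes with a position (17.3%).

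2810474O19Rik, now named Resf1, encodes a factor that silences retroelements (chr6:149309409-149335663). It had 8.998, 10.3 and 11.5 FPKM as the lowest, median and highest OGA_TG heart, against 3.26, 4.80 and 6.09 FPKM in WT hearts, a rise of 0.95 log2 (SE 0.11, limma adjusted p = 0.00108) with no overlap. D830015G02Rik is the RefSeq gene Mhrt, a long noncoding RNA transcribed opposite to the cardiac myosin heavy chain genes (chr14:54968787-54974349). It had 239.7, 276.6 and 302 FPKM in OGA_TG hearts and 126, 154 and 203 FPKM in WT hearts, again with no overlap, and rose by 0.81 log2 (SE 0.11, adjusted p = 0.00253). Whether the quantification used strand is not given in the sources used here, so reads of Mhrt and of opposite transcripts cannot be told apart. The myosin genes Myh6 and Myh7 shared 1 joined row of the table and are not described singly. The joined rows, 324 of those tested, gave no call.

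Nr4a3 is an orphan nuclear receptor and immediate early gene, one of those switched on within minutes of a stimulus (chr4:48045078-48086447). It had 1.61, 3.16 and 4.35 FPKM as the lowest, median and highest OGA_TG heart and 0.364, 0.889 and 2.81 FPKM in WT hearts. The pooled ranges overlapped, and males were higher in both genotypes. OGA_TG males had 4.31, 4.35 and 4.15 FPKM against 1.42, 2.81 and 1.40 FPKM in WT males, and OGA_TG females had 2.17, 1.61 and 1.93 FPKM against 0.382, 0.369 and 0.364 FPKM in WT females. Within each sex the groups did not overlap, and with sex as a term Nr4a3 rose by 0.99 log2 (SE 0.11, limma adjusted p = 0.000504), a call that was kept with every heart left out in turn. That call was lost without the sex term, in the fit of all 24 hearts and in males alone.

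Nr4a3 is a textbook target of the cAMP-responsive factor CREB, so the letters of its promoter are shown, as RefSeq has them on GRCm38.p6. The stretch chr4:48045074-48045096, on the plus strand, lies 231 to 209 bases before the RefSeq transcript start used for the promoter, chr4:48045305. The gene's RefSeq span opens further upstream, at 48045078, inside this stretch. Capitals mark the core of the cAMP response element, searched as TGACG or its reverse complement CGTCA.
Nr4a3 promoter: TGACGtagcgtcccatgtCGTCA
The 250 bases before the start used held 4 such matches, of which 2 lie in this stretch. At least 4 matches occurred in 0.137% of 32851 promoter windows of that length, and at least 1 in 17.8%. Among genes called here 17 of 66 with a promoter in the table held a match (25.8%), against 31.1% of the 8898 tested genes, so the called genes as a group held it no more often. A match of letters is a description and says nothing of binding.

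Hsph1, the HSP110 co-chaperone that works with HSP70, had 20.02, 24.6 and 32.5 FPKM as the lowest, median and highest OGA_TG heart, against 16.1, 17.1 and 20.6 FPKM in WT hearts. The lowest OGA_TG heart lay just below the highest WT heart, and Hsph1 rose by 0.50 log2 (SE 0.09, limma adjusted p = 0.0284). This call was lost in 8 of the 12 fits that left out 1 heart. Genes of the heat shock response carry binding sites of the factor HSF1, and the stretch chr5:149636352-149636379 on the minus strand, 43 to 16 bases before the Hsph1 transcript start used (149636336), is shown for the core of that element, searched as TTCNNGAA or GAANNTTC and marked in capitals. The RefSeq span of Hsph1 reaches 149636498, so the stretch lies within it.
Hsph1 promoter: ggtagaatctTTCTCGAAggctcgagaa
This core occurred at least once in 12.8% of all promoter windows, in 8 of 66 called genes (12.1%) and in 12.2% of the tested genes. Hspa8, the constitutive HSP70 partner, had 980.3, 1071 and 1168 FPKM in OGA_TG hearts and 803, 933 and 974 FPKM in WT hearts. Its 6 OGA_TG hearts lay above all WT hearts, and the difference of 0.25 log2 did not pass (adjusted p = 0.0834). Of 26 tested chaperone genes, Hsph1 was the 1 that rose and none fell, with a median of 0.03 log2 against -0.05 over all rows tested.

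The other rises were of mixed function. Armc2, known from mice for assembly of the sperm flagellum, had 21.0, 25.3 and 27.5 FPKM as the lowest, median and highest OGA_TG heart against 15.5, 16.7 and 19.5 FPKM in WT hearts, without overlap (0.50 log2, SE 0.08, limma adjusted p = 0.00955). 1110034G24Rik, now Shld1, a subunit of the DNA repair complex shieldin, had 23.4, 28.3 and 32.3 FPKM in OGA_TG hearts and 17.3, 19.9 and 22.9 FPKM in WT hearts, also without overlap (0.47 log2, adjusted p = 0.0200). Sgms1, a sphingomyelin synthase, had 19.2, 22.02 and 24.6 FPKM in OGA_TG hearts and 15.9, 16.7 and 18.97 FPKM in WT hearts (0.34 log2, adjusted p = 0.0343). The same was seen for Abat, the enzyme that breaks down GABA (0.41 log2, adjusted p = 0.0394), and Hn1l, now Jpt2 (0.31 log2, adjusted p = 0.0351), in which no OGA_TG heart overlapped a WT heart. Tmem116 (0.66 log2, adjusted p = 0.0357), Serf1 (0.66 log2, adjusted p = 0.0482) and Tsacc, a testis co-chaperone (0.46 log2, adjusted p = 0.03996), had hearts that met or overlapped between the groups. The GENCODE annotation has Erp29 overlapping Tmem116 on the opposite strand. Whether strand was used in the quantification is not given in the sources used here, so reads from such pairs cannot be told apart. Abat was lost in 11, Serf1, Tsacc and Hn1l in 10, Tmem116 in 9 and Sgms1 in 8 of the 12 fits that left out 1 heart.

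**Figure D3:**
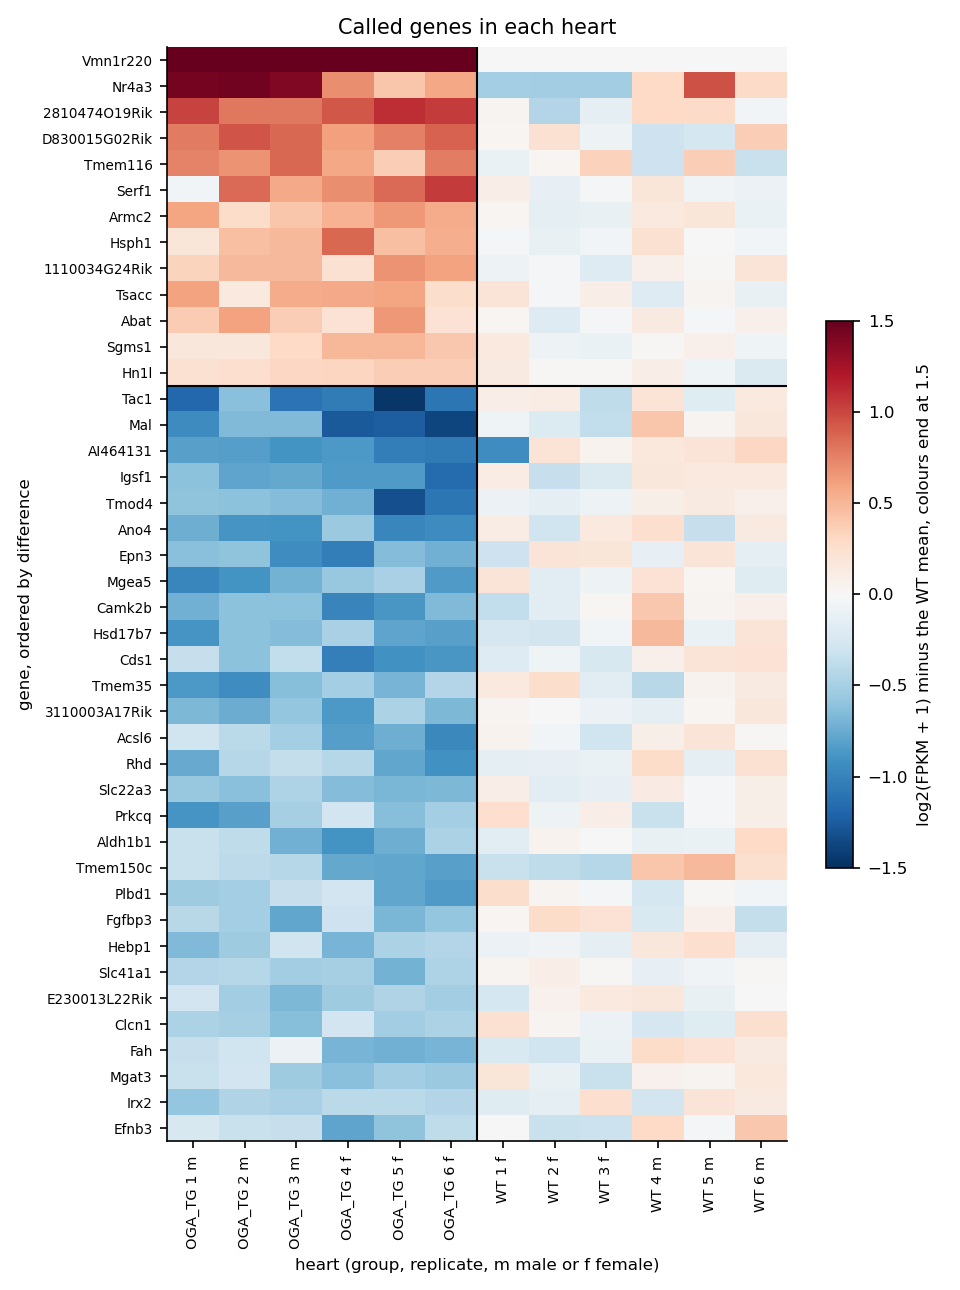
Called rows in single hearts, as log2(FPKM + 1) minus the WT mean, for the rises and the largest falls named in the text other than OGA, with the 6 OGA_TG hearts left of the 6 WT hearts; colours end at 1.5 in either direction. The OGA_TG columns hold the coloured blocks, and AI464131 in WT replicate 1 has the colour of the OGA_TG hearts.

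Enzymes of metabolism were among the falls. Fah, the last enzyme of tyrosine breakdown, had 6.495, 7.68 and 10.6 FPKM in OGA_TG hearts and 9.05, 11.6 and 13.9 FPKM in WT hearts and fell by 0.48 log2 (adjusted p = 0.00132), with pooled ranges that overlapped. Aldh1b1, a mitochondrial aldehyde dehydrogenase, had 6.35, 8.05 and 9.83 FPKM in OGA_TG hearts against 11.2, 12.3 and 15.8 FPKM in WT hearts (-0.59 log2, adjusted p = 0.0154), without overlap.

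Enzymes of lipid synthesis and activation also fell. Hsd17b7, which acts late in cholesterol synthesis, had 3.58, 4.17 and 5.05 FPKM as the lowest, median and highest OGA_TG heart and 6.02, 7.07 and 10.9 FPKM in WT hearts, and fell by 0.71 log2 (SE 0.11, limma adjusted p = 0.0134) without overlap. Cds1 makes CDP-diacylglycerol, a precursor of phosphatidylinositol and cardiolipin. It had 0.647, 1.00 and 1.64 FPKM in OGA_TG hearts against 1.84, 2.37 and 2.90 FPKM in WT hearts (-0.69 log2, adjusted p = 0.000474). Acsl6, an acyl-CoA synthetase, had 2.63, 3.61 and 4.76 FPKM in OGA_TG hearts and 4.73, 6.26 and 7.09 FPKM in WT hearts (-0.62 log2, adjusted p = 0.00197), with the ranges just touching. Hsd17b7 was the 1 call among 24 tested genes of cholesterol synthesis (median -0.07) and Cds1 the 1 call among 32 of fatty acid and phospholipid synthesis (median -0.05). Acsl6 is a member of neither list. Of the 24 genes 19 were negative and of the 32 genes 25, against 69.7% of all rows tested. Whether either pathway moved as a whole was not tested.

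Other falls were of single genes of muscle structure, membrane transport and excitability. The lists of sarcomere and calcium handling genes held no call, and so none of the genes named here. Tmod4, a cap of the thin filament known best from skeletal muscle, had 7.10, 11.6 and 12.3 FPKM as the lowest, median and highest OGA_TG heart, against 17.4, 19.3 and 21.3 FPKM in WT hearts (-0.83 log2, SE 0.09, limma adjusted p = 0.000402). Slc41a1, a magnesium transporter, had 16.8, 19.9 and 20.6 FPKM in OGA_TG hearts and 25.7, 28.5 and 30.1 FPKM in WT hearts (-0.51 log2, adjusted p = 0.000952). Slc22a3, an organic cation transporter that takes up catecholamines, had 2.41, 2.51 and 2.96 FPKM in OGA_TG hearts and 3.88, 4.599 and 4.94 FPKM in WT hearts (-0.61 log2, adjusted p = 0.000402). In none of these 3 genes did an OGA_TG heart reach a WT heart. Ano4, a member of the anoctamin family of chloride channels and lipid scramblases, stood at a median of 1.74 FPKM in OGA_TG and 4.53 FPKM in WT hearts (-0.83 log2, adjusted p = 0.00378). Clcn1, the chloride channel of skeletal muscle, had medians of 3.76 FPKM in OGA_TG and 5.57 FPKM in WT hearts (-0.48 log2, adjusted p = 0.0262), a call lost in 7 of 12 fits that left out 1 heart and under median-of-ratios scaling. Gja1 encodes connexin 43, the main gap junction protein of the ventricle. It had 189, 203 and 226 FPKM in OGA_TG hearts and 221, 265 and 276 FPKM in WT hearts, and fell by 0.36 log2 (SE 0.06, adjusted p = 0.0200), a call lost in 3 of 12 fits that left out 1 heart, under median-of-ratios scaling and quantile normalization, and in the fit of all 24 hearts.

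Tac1 encodes the precursor of substance P and neurokinin A, peptides of sensory neurons (chr6:7555061-7562978). It had 0.0967, 0.406 and 0.948 FPKM as the lowest, median and highest OGA_TG heart, against 1.31, 2.23 and 2.46 FPKM in WT hearts. The groups stood apart and Tac1 fell by 1.08 log2 (SE 0.13, limma adjusted p = 0.000952). Mal, a membrane protein of myelin, lymphocytes and epithelia (chr2:127633226-127656695), had 2.97, 3.90 and 5.56 FPKM in OGA_TG hearts and 7.03, 9.29 and 12.8 FPKM in WT hearts (-1.02 log2, SE 0.08, adjusted p = 4.04e-05). Prkcq, protein kinase C theta of T cells and skeletal muscle, had medians of 1.72 FPKM in OGA_TG and 3.13 FPKM in WT hearts (-0.60 log2, adjusted p = 0.0154).

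Membrane and signalling genes were among the remaining falls. Igsf1, an X-linked membrane glycoprotein known from the pituitary, had 4.06, 5.38 and 6.37 FPKM as the lowest, median and highest OGA_TG heart, against 7.84, 11.3 and 11.6 FPKM in WT hearts (-0.84 log2, SE 0.08, limma adjusted p = 0.000364). Epn3, an endocytic adaptor of epithelia, had 2.01, 2.84 and 3.08 FPKM in OGA_TG hearts and 4.00, 5.35 and 6.11 FPKM in WT hearts (-0.76 log2, adjusted p = 0.00506). Neither gene overlapped between the groups. 3110003A17Rik, now Abracl, which promotes actin dynamics, had 15.4, 17.7 and 20.4 FPKM in OGA_TG hearts and 26.003, 29.1 and 32.5 FPKM in WT hearts (-0.67 log2, adjusted p = 0.000474), also without overlap. AI464131, now Myorg, a glycosidase of the endoplasmic reticulum, had 2.87, 3.37 and 3.59 FPKM in OGA_TG hearts and 3.22, 8.12 and 9.005 FPKM in WT hearts (-0.92 log2, adjusted p = 0.0154). Here 1 WT heart, replicate 1, stood within the OGA_TG range, and it is the WT heart with the title number 2047. Tmem35, now Tmem35a, a chaperone of nicotinic receptors, fell by 0.68 log2 (adjusted p = 0.0113), Rhd, the Rh blood group protein, by 0.61 log2 (adjusted p = 0.0135) and Hebp1, a heme-binding protein, by 0.52 log2 (adjusted p = 0.0135), each without overlap. Mgat3, the enzyme that adds the bisecting N-acetylglucosamine to N-glycans, had medians of 1.10 FPKM in OGA_TG and 2.14 FPKM in WT hearts (-0.48 log2, adjusted p = 0.0230), a call lost in 5 of 12 fits that left out 1 heart. Also among the 30 largest falls were Tmem150c (-0.59), Plbd1 (-0.55), Fgfbp3 (-0.55), E230013L22Rik (-0.50), Irx2 (-0.46) and Efnb3 (-0.45), and the remaining 37 falls ran from -0.44 to -0.24 log2. Of these 6, Plbd1, Fgfbp3, Irx2 and Efnb3 were lost under each of the 3 other scalings and in 9, 8, 10 and 9 of the 12 fits that left out 1 heart.

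No OGA_TG heart overlapped a WT heart in 121 further rows with a group mean of at least 2 FPKM that were not called, 104 lower and 17 higher in OGA_TG. Their limma adjusted p ran from 0.0513 to 0.501. Ctf1, the growth factor cardiotrophin 1, had 5.12, 5.69 and 7.14 FPKM as the lowest, median and highest OGA_TG heart and 3.63, 4.61 and 4.95 FPKM in WT hearts (0.37 log2, limma adjusted p = 0.0946). Rnf157 (0.62) and Cpeb4 (0.30) were also above, and below were Prps2 (-0.88), an X-linked enzyme of nucleotide synthesis, with 3.84, 3.96 and 5.15 FPKM in OGA_TG hearts and 5.81, 7.80 and 15.4 FPKM in WT hearts (adjusted p = 0.0522), and Edn1, the endothelin 1 gene, with 1.15, 1.595 and 2.19 FPKM in OGA_TG hearts and 2.19, 2.48 and 2.78 FPKM in WT hearts (-0.41 log2, adjusted p = 0.0648).

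Gene lists for heart function held few calls. Across 28 such lists 690 of 785 members could be tested, and 20 of the lists held no called gene. Counting each row once, 2 of 675 rose and 7 fell, which is 1.33%, against 0.710% of all rows tested, with a median of -0.05 log2, the same as over all rows tested. None of the 15 cardiac stress and fetal genes was called (median 0.00), though 7 of them (46.7%) had an unadjusted p under 0.05, against 12.7% of all rows, with differences from -0.33 to 0.53 log2. Nppa, the atrial natriuretic peptide gene, had 1566, 2037 and 2484 FPKM as the lowest, median and highest OGA_TG heart and 2180.2, 2501 and 2999 FPKM in WT hearts (-0.33 log2, limma adjusted p = 0.228). Nppb, the B-type natriuretic peptide gene, had medians of 249 FPKM in OGA_TG and 290.1 FPKM in WT hearts (-0.18 log2, adjusted p = 0.776), and its ranges overlapped widely.

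**Figure D4:**
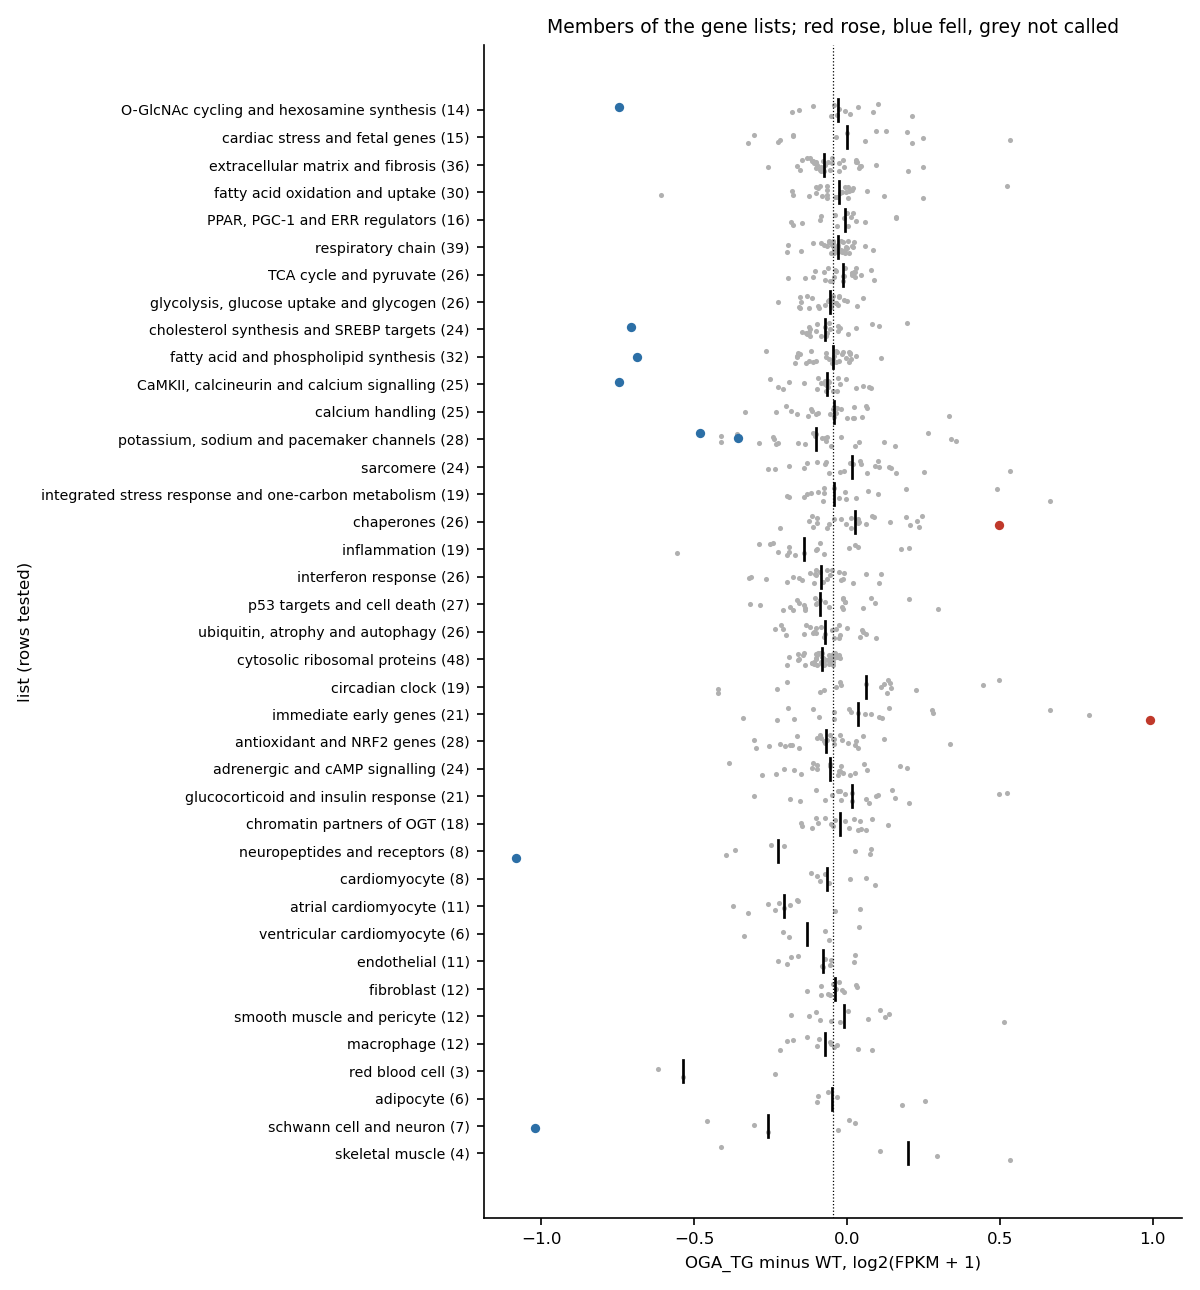
Differences in mean log2(FPKM + 1), OGA_TG minus WT, for the tested members of each list with at least 3 tested rows, apart from a list of X and Y genes; black bars are list medians and the dotted line is the median of -0.05 over all tested rows. Most list medians lie near that line, that of the red blood cell markers lies lowest at -0.53, and single members such as Tac1, Mal and Nr4a3 stand far out.

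Medians of the metabolic lists were near that over all rows tested. None was called of 30 genes of fatty acid oxidation and uptake (median -0.03), 39 of the respiratory chain (-0.03), 26 of the TCA cycle and pyruvate (-0.01), 26 of glycolysis (-0.06) and 16 PPAR, PGC-1 and ERR regulators (0.00). These lists do not hold Acsl6, Fah or Aldh1b1, which fell. Of the 26 glycolytic genes 24 were negative and of the 39 of the respiratory chain 32, against 69.7% of all rows tested. Negative were also 20 of the 30 of fatty acid oxidation, 16 of the 26 of the TCA cycle and 8 of the 16 regulators. Whether these shares differ from that of all rows was not tested. Ldha, lactate dehydrogenase A, had 319.9, 345.7 and 369.7 FPKM as the lowest, median and highest OGA_TG heart and 377.8, 400.1 and 437.2 FPKM in WT hearts (-0.23 log2, limma adjusted p = 0.0599). All 48 tested genes of cytosolic ribosomal proteins were negative, from -0.20 to -0.02 log2 with a median of -0.08, and none was called. Tac1 was the 1 call among 8 tested neuropeptide and receptor genes (12.5%, against 0.710% of all rows tested), with a median of -0.23. Tac1 passed the expression minimum through the WT hearts alone, where it is higher, so that share rests in part on the filter. Of these 8 genes, 4 had an unadjusted p under 0.05 (50%, against 12.7% of all rows). In the list of O-GlcNAc cycling and hexosamine synthesis, 14 rows were tested and Mgea5 was the 1 call, with a median of -0.03.

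Contraction and rhythm gave few calls. Camk2b was the 1 fall among 25 genes of CaMKII, calcineurin and calcium signalling (median -0.06), and none was called among 25 of calcium handling (-0.04) or 24 of the sarcomere (0.02). The sarcomere list does not hold Tmod4, which fell. Among 28 potassium, sodium and pacemaker channel genes, a list that also holds Clcn1 and Gja1, these 2 fell (7.14%, against 0.580% of all rows) and the median was -0.10. An unadjusted p under 0.05 was found in 10 of the 28 (35.7%, against 12.7% of all rows). Scn4b, a beta subunit of the sodium channel, was higher by 0.36 log2 (limma adjusted p = 0.0834), Kcnq1, a repolarising potassium channel, lower by 0.36 (adjusted p = 0.107) and Hcn4, the pacemaker channel of the sinus node, lower by 0.41 (adjusted p = 0.115), none of them called. No gene was called among 24 of adrenergic and cAMP signalling (median -0.06), 36 of extracellular matrix (-0.07), 19 of inflammation (-0.14), 26 of the interferon response (-0.08), 27 p53 targets (-0.09), 28 antioxidant genes (-0.07), 26 of ubiquitin and autophagy (-0.07), 19 of the integrated stress response (-0.04), 21 of glucocorticoid and insulin response (0.02) and 18 chromatin partners of OGT (-0.02). The inflammation list does not hold Il15 or Csf1, which fell and are described at the end.

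Immediate early and clock genes showed wide spreads. Nr4a3 was the 1 rise among 21 immediate early genes (median 0.04). Its relative Nr4a1 had 33.7, 30.4 and 26.9 FPKM in OGA_TG males against 16.5, 25.5 and 14.2 FPKM in WT males, and 9.98, 9.02 and 16.8 FPKM in OGA_TG females against 3.52, 6.58 and 8.12 FPKM in WT females. Within each sex the OGA_TG hearts were above the WT hearts, yet the difference of 0.79 log2 was not called (SE 0.19, limma adjusted p = 0.0805). Of 19 clock genes none was called (median 0.06): Per2, a clock repressor, had medians of 4.25 FPKM in OGA_TG and 2.67 FPKM in WT hearts (0.45 log2, adjusted p = 0.110), and Npas2, a clock activator, 1.45 FPKM in OGA_TG and 1.99 FPKM in WT hearts (-0.42, adjusted p = 0.0599). The time of day at which hearts were taken is not given in the sources used here.

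Markers of cell types were checked beside these genes. In bulk tissue, fewer cells of a type and less RNA per cell cannot be told apart. Over 16 marker lists 104 members were tested, none rose and 3 fell (2.88%, against 0.580% of all rows tested), namely Mal, Epn3 and Cds1. Members are counted once per list, and Myl2 and Myl3 stand in both the cardiomyocyte and the ventricular list. Medians stayed between -0.13 and -0.01 log2 for cardiomyocyte, ventricular, endothelial, fibroblast, smooth muscle and macrophage markers, with none called. Of 11 atrial markers 10 were negative, with a median of -0.21, and their summed level was 3881 to 5472 FPKM in OGA_TG hearts and 4583 to 6005 FPKM in WT hearts. The 3 tested red blood cell markers, which include Alas2 (-0.53) and Bpgm (-0.23), were lower without a call, and their part in the fall of Rhd was not tested. The 17 markers of Schwann cells and neurons summed to 21.3 to 29.2 FPKM in OGA_TG hearts and 31.8 to 38.7 FPKM in WT hearts, with Mal the 1 call among 7 tested. Without Mal the other 16 summed to 16.9 to 25.8 FPKM in OGA_TG hearts and 21.4 to 31.3 FPKM in WT hearts, ranges that overlap, and Sox10, a defining gene of Schwann cells, stayed under 0.9 FPKM in every heart. Their part in the falls of Mal and Tac1 was not tested. Of 17 epithelial markers only Epn3 and Cds1 passed the expression minimum and both fell, while Cldn3, Sftpc and Elf3 were at 0 in all 12 hearts and Epcam reached at most 0.0820 FPKM. Cds1 reached that minimum in every WT heart but not in every OGA_TG heart, so its place among the tested rows owes to the group where it is high. The part of epithelial cells in these falls was not tested.

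Whether the transgene acted differently in males and females was tested with an interaction term, which called 0 of 11556 rows (0%) with limma. Before adjustment 683 rows had p under 0.05, the lowest adjusted p was 0.723, library weights gave 1821 calls, and 1 row was called without WT replicate 5. All 81 called rows other than OGA had the same sign in males and in females. These rows were called from the same hearts, both sexes together, so this agreement largely follows from the selection and says little about sex. A sex term itself was called in 39 rows. Among the genes of the comparison, the sex term stood out for Tmem150c, a mechanosensitive membrane protein, with 2.24, 2.13 and 2.04 FPKM in OGA_TG males against 4.47, 4.76 and 3.82 FPKM in WT males, and 1.40, 1.38 and 1.33 FPKM in OGA_TG females against 2.25, 2.15 and 2.03 FPKM in WT females. Each sex held its own gap between genotypes. Acta1, the skeletal actin gene of stressed hearts, had 168, 186 and 175 FPKM in OGA_TG males against 141, 85.3 and 92.5 FPKM in WT males, and 64.5, 69.3 and 88.5 FPKM in OGA_TG females against 33.8, 78.4 and 77.8 FPKM in WT females. The males stood apart and the females overlapped, and the pooled difference of 0.53 log2 was not called (limma adjusted p = 0.264).

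By chromosome, falls were spread over the genome. On the X chromosome 7 of 337 tested genes fell (2.08%) and none rose, against 60 of 10753 autosomal genes that fell (0.558%) and 14 that rose. The 7 X-linked genes were Igsf1, Tmem35, Hmgb3, Taf9b, Gpc4, Dcaf12l1 and Amot, of which those outside the 30 largest falls were named after their values were seen. Hmgb3, a chromatin protein, had 39.8, 41.8 and 46.0 FPKM as the lowest, median and highest OGA_TG heart and 49.3, 52.5 and 58.9 FPKM in WT hearts (-0.32 log2, limma adjusted p = 0.0142), a call lost under median-of-ratios scaling. Taf9b, Gpc4 and Amot were called under none of the 3 other scalings. The median over all tested X-linked genes was -0.04 log2, near the -0.05 of the autosomes, and whether the share of falls differs between X and autosomes was not tested.

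The second pair of groups, DTG against OGT_TG, also differs by the OGA transgene and shares no heart with the first. It asks how the genes called above stood when the OGT transgene was present. OGT_TG hearts carry the same title numbers as WT hearts, and DTG hearts share none with OGT_TG hearts. In both pairs, whatever the number stands for therefore cannot be told apart from the OGA transgene, also where both pairs have the same sign. In that pair 2459 of 11766 tested rows were called (20.9%), 2136 lower in DTG (18.2%) and 323 higher (2.75%). Over all 24 hearts, the first principal component scored OGT_TG replicates 3 and 6 at 52.7 and 52.9, far from the 11.4 to 17.9 of their group, so each count is also given without these 2 hearts, a setting chosen after the scores were seen. Without them 2201 rows were called (18.7%), 1940 lower (16.5%) and 261 higher (2.22%), and with title number as a random block 1370. The excess of falls moved with the scaling, with 728 higher and 685 lower under median-of-ratios scaling, which brought the median over all rows to 0.02 log2, against -0.11 as deposited. The shares of same sign that follow rest on the values as deposited.

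Of the 65 falls that could be tested in both pairs, 39 had the same sign in DTG against OGT_TG (60%) and 18 were called lower there, none higher. Without the 2 hearts 53 had the same sign (81.5%) and 24 were called lower, 18 of them shared with the fit of all hearts. For all rows negative in OGA_TG against WT, called or not, the same sign was found in 71.8% with all hearts and 72.1% without the 2 hearts. Of the 14 rises, 9 had the same sign with all hearts and 7 without the 2, Vmn1r220 and D830015G02Rik were called higher in DTG in both fits, and Abat was called lower (-0.63 log2, limma adjusted p = 0.00123). For all positive rows the share of the same sign was 31.3% with all hearts and 30.3% without the 2.

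Tac1 averaged 2.55 ± 0.455 FPKM in DTG hearts and 6.16 ± 1.18 FPKM in OGT_TG hearts (SD, n = 6), lower in DTG by a log2 difference of -1.01 (limma adjusted p = 0.000883). Igsf1 (-0.96), Cds1 (-0.84), Rhd (-0.71), Camk2b (-0.70), 3110003A17Rik (-0.57) and Prkcq (-0.54) were likewise called lower in DTG, and each of these calls was kept without OGT_TG replicates 3 and 6. With title number as a random block only that of Prkcq was lost among them (adjusted p = 0.0581). D830015G02Rik averaged 1427 FPKM in DTG hearts and 496.8 FPKM in OGT_TG hearts (1.63 log2, adjusted p = 0.00313). 2810474O19Rik, which averaged 7.34 FPKM in DTG and 10.1 FPKM in OGT_TG hearts, was not called (-0.39 log2, adjusted p = 0.0612).

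**Figure D5:**
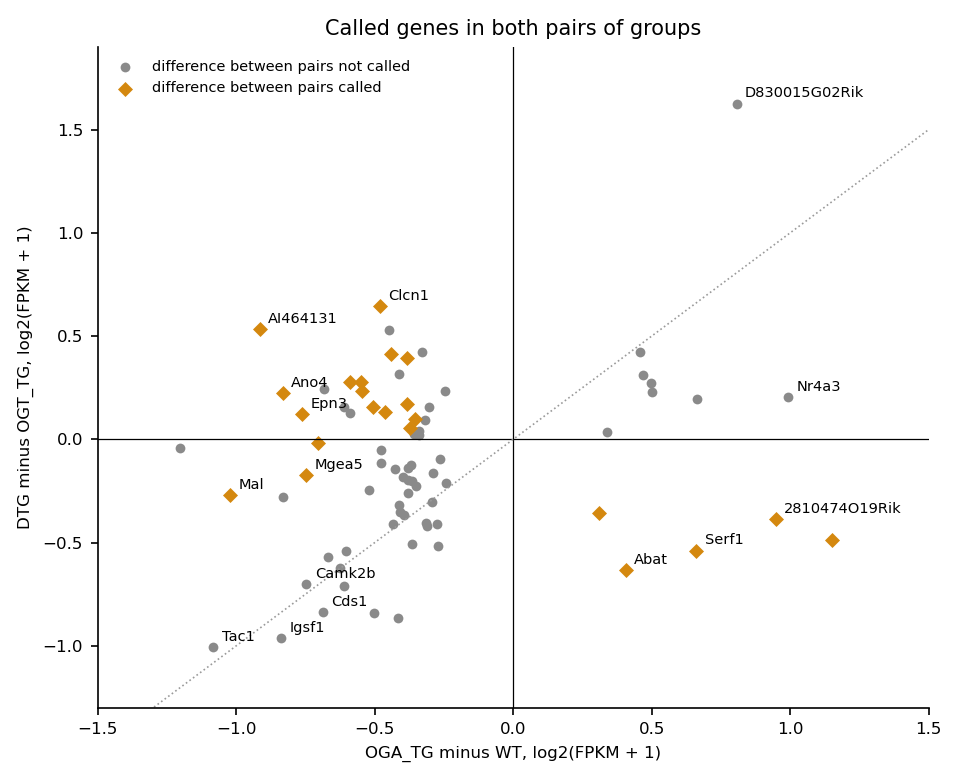
OGA_TG minus WT on the horizontal axis against DTG minus OGT_TG on the vertical axis, both as differences in mean log2(FPKM + 1), for the called genes other than OGA and Vmn1r220; the dotted line marks equal effects, and orange diamonds mark genes for which the difference between both effects was called in the fit of 24 hearts. Tac1, Igsf1 and Camk2b lie low in both pairs, while Abat and 2810474O19Rik lie right of 0 and below it.

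Whether the effect of the OGA transgene differed with the OGT transgene was tested in 1 fit of all 24 hearts, as the effect in DTG against OGT_TG less that in OGA_TG against WT. It was called in 877 of 12020 rows (7.30%) and, without OGT_TG replicates 3 and 6, in 557 (4.63%). That fit takes the hearts as independent although WT and OGT_TG share title numbers, and with title number as a random block 423 rows were called. Of the 81 genes called in OGA_TG against WT and tested here, 23 were called, 6 rises and 17 falls, and 20 without the 2 hearts, of which 19 were shared. For 2810474O19Rik the difference between the effects was -1.33 log2 (SE 0.20, limma adjusted p = 0.000912), kept without the 2 hearts. Mal went the other way, 0.75 (adjusted p = 0.0373), a call lost without the 2 hearts (adjusted p = 0.0571), as were those of Mgea5 (adjusted p = 0.0944), Hsd17b7 (0.0648) and 2510002D24Rik (0.0988). For Tac1 (0.08, adjusted p = 0.836), Camk2b (0.05, adjusted p = 0.871) and Igsf1 (-0.12, adjusted p = 0.636) the effects in both pairs were not found to differ, which does not show that they are equal.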

How the data were processed

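Whole hearts were homogenised and polyadenylated RNA was sequenced from stranded libraries as 100 bp paired-end reads, per the labels' protocols. The authors deposited 1 table of FPKM values on mm10, and the submitters' processing notes name FastQC, TopHat, SAMtools, StringTie and Cuffdiff 2.2.1. The table gives no counts, so depth was estimated from 318 rows with transcripts over 3000 bases and a mean under 0.3 FPKM, of whose values 69.7% to 82.2% per heart lay within 0.15 of a whole number of fragments, against 30% for uniform values.

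Of 19664 rows, 4 with missing values were left out. Rows with FPKM of at least 1 in at least 6 of the 12 hearts were tested on log2(FPKM + 1) with limma 3.58.1 (two-sided, intensity trend, sex as a term) in R 4.3.3, with p-values adjusted by Benjamini and Hochberg's method over all rows tested and 0.05 as the limit for a call. Only the OGA_TG and WT hearts entered that fit; the second pair was fitted likewise, and the difference between both pairs in all 24 hearts. The pseudocount of 1 understates fold changes of low genes. P-values measure the spread between hearts, each a library of its own. Positions and promoters came from RefSeq GRCm38.p6, matched by symbol for 18474 rows. The scripts were tested on simulated data and used Python 3.11.15, pandas 2.3.3, numpy 2.4.6 and matplotlib 3.10.9.

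The genes named are the OGA, OGT, Mgea5 and Ogt rows, all 15 rises, the 30 largest falls, the 10 largest uncalled rises and falls without overlap and with a group mean of at least 2 FPKM, and up to 5 members per list with the smallest p, with exceptions marked; a few genes that this rule names are not reported here. The comparison, members and lists were chosen with earlier results of these data known. Other settings were a pseudocount of 0.1, no filter, a filter of 5 FPKM, no sex term, 3 other scalings, library weights, robust moderation, all 24 hearts, single sexes, title number as a random block (limma's duplicateCorrelation), and each heart left out in turn.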

Additional observations from a re-analysis of the deposited data

Results flagged for a closer look

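In 93 groups of 6 hearts examined for a heart far from the others, 4 had one, and chance alone flags about 1 in 20 groups. OGA_TG replicate 1 had 1.1061 FPKM in the OGT row, against 0.3559 to 0.577 FPKM in the other OGA_TG hearts. OGA_TG replicate 5 had 16.7982 FPKM of Slc41a1, against 19.2881 to 20.5985 FPKM in the other OGA_TG hearts. WT replicate 4 had 20.6278 FPKM of Hsph1, against 16.1399 to 17.3552 FPKM in the other WT hearts. WT replicate 1 had 3.2245 FPKM of AI464131, against 7.3445 to 9.0047 FPKM in the other WT hearts.

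The effect of the OGA transgene differed with the OGT transgene in 17 of the named genes, by limma over all 24 hearts. The values that follow are the effect with the OGT transgene (DTG minus OGT_TG) less the effect without it (OGA_TG minus WT), in log2. Among the rises they were -1.33 for 2810474O19Rik, -1.20 for Serf1, -1.04 for Abat (adjusted p = 4.15e-05), -0.67 for Hn1l and -0.51 for Vmn1r220 (adjusted p = 0.0192), where OGT_TG and WT hearts were listed at 0, so this value only sets DTG beside OGA_TG levels. Among the falls they were 1.45 for AI464131, 1.13 for Clcn1, 1.05 for Ano4, 0.88 for Epn3, 0.86 for Aldh1b1, 0.83 for Plbd1, 0.78 for Fgfbp3, 0.75 for Mal, 0.69 for Hsd17b7, 0.66 for Slc41a1, 0.59 for Irx2 and 0.57 for Mgea5, with adjusted p from 0.00252 for Epn3 to 0.0379 for Mgea5. Those of Mal, Hsd17b7 and Mgea5 were lost without OGT_TG replicates 3 and 6, and those of Mal, Hsd17b7 and Plbd1 with title number as a random block.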

How the results depend on the processing

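The 82 calls in OGA_TG against WT became 51 under median-of-ratios scaling (44 shared), 47 under quantile normalization, 157 with library weights, 43 in the fit of all 24 hearts (35 shared), 11 in males alone, 6 in females alone and 20 with title number as a random block (6 rises, 14 falls), a setting added after seeing the data. That block gave 1370 calls in DTG against OGT_TG and 423 of the difference between pairs. Leaving out each heart in turn gave 42 (without WT replicate 2) to 72 calls, and under 50 also without OGA_TG replicate 1, 2 or 3. An equal sum of FPKM gave 56 calls (18 rises, 38 falls), no filter 81 (8 rises, 73 falls) and a filter of 5 FPKM 56 (13 rises, 43 falls). The interaction with sex gave 1821 calls with library weights and 0 to 1 with single hearts left out. The 2459 calls in DTG against OGT_TG became 1413 under median-of-ratios scaling (728 higher, 685 lower), 1220 under quantile normalization (546 higher, 674 lower) and 5026 with library weights, and 1375 (without DTG replicate 3) to 3257 (without DTG replicate 6) with single hearts left out. The 877 calls of the difference between pairs became 2085 with library weights, 557 without OGT_TG replicates 3 and 6, chosen after seeing the data, and 515 (without WT replicate 6) to 1459 (without OGT_TG replicate 2) with single hearts left out. The cause of these changes was not tested, except that single-sex and leave-one-out fits hold fewer hearts. The other settings left these counts within 1.5 times. No called gene changed its direction, while 44 values of genes not called and 83 of list medians changed sign. So did, without OGT_TG replicates 3 and 6, the uncalled differences between pairs of Tac1 (-0.03), Camk2b (-0.03) and Igsf1 (0.04). Of the single-gene values in OGA_TG against WT, 6122 stayed on their side of the threshold, 770 lost a call and 33 gained one. No paired analysis was possible because OGA_TG and WT share no number in the sample titles. Depth was only estimated, so no counting interval is given for low rows such as Tac1.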

Other observations

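The 4 smaller falls in OGA_TG hearts described here were chosen after their values were seen. Il15, a cytokine of heart and skeletal muscle, had 20.6, 26.1 and 27.8 FPKM as the lowest, median and highest OGA_TG heart, against 31.2, 33.1 and 40.3 FPKM in WT hearts. No OGA_TG heart reached a WT heart, and Il15 fell by 0.41 log2 (limma adjusted p = 0.0200), a call lost without OGA_TG replicate 2 and under median-of-ratios scaling. Csf1, the macrophage growth factor, had medians of 12.1 FPKM in OGA_TG and 14.9 FPKM in WT hearts (-0.31 log2, adjusted p = 0.0343), a call lost in 10 of the 12 fits that left out 1 heart, while none of the 12 tested macrophage markers was called. St3gal1, which adds sialic acid to O-linked glycans, had 8.10, 8.22 and 8.59 FPKM in OGA_TG hearts and 9.57, 10.9971 and 12.2 FPKM in WT hearts (-0.36 log2, adjusted p = 0.0154), kept with each heart left out and under the 3 other scalings, and lost in the fit of all 24 hearts and with title number as a block. It was also lower in DTG than in OGT_TG hearts (-0.51 log2, adjusted p = 0.0112). Best3, of the bestrophin family of chloride channels, had medians of 3.72 FPKM in OGA_TG and 5.06 FPKM in WT hearts (-0.38 log2, adjusted p = 0.0135), without overlap.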
